A study of Mus musculus with 12 samples.

Results

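Nuclear receptors are transcription factors that bind DNA and change gene expression when a small lipophilic ligand fits their pocket, although some members lack a known ligand. In macrophages they link lipids, steroids, vitamins and the circadian clock to inflammatory gene expression. The 10 receptors described here were chosen by name: the orphan receptors Nr4a1, Nr4a2 and Nr4a3, the fatty acid receptors Pparg and Ppard, their partner Rxra, the clock repressors Nr1d1 and Nr1d2, the glucocorticoid receptor Nr3c1, and the vitamin D receptor Vdr. They are 10 of the 55335 genes in the deposited table, and 8 of them reached an FPKM (fragments counted in a gene, divided by its length in kilobases and by the library's mapped fragments) of at least 1 in at least 3 libraries, the minimum for testing. Nr4a2 and Nr4a3 did not. Vdr passed only through the Nlrp3-/- libraries and Pparg only through the control libraries, the groups in which each was high.

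RNA of bone marrow-derived macrophages (BMDMs) was sequenced in 12 libraries. BMDMs are macrophages grown from mouse bone marrow, here over 7 days of culture with macrophage colony-stimulating factor from C57BL/6 mice aged 8 weeks. The 4 groups of 3 libraries were wild-type control, wild-type with LPS+ATP, Nlrp3-/- control and Nlrp3-/- with LPS+ATP. LPS is lipopolysaccharide, a bacterial signal that readies macrophages for inflammasome assembly, and extracellular ATP is the trigger of that assembly. The sample labels give 4 h of LPS and 30 min of ATP, whereas the methods of the study give 12 h and 2 h, so the length of stimulation is uncertain. The Nlrp3-/- mice carried a global knockout, which is not limited to macrophages. Nothing in the sources states that the 3 libraries of a group came from separate mice or cultures, and the p-values measure only the spread between these libraries.

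Nlrp3 was 9.68 ± 0.425 FPKM (SD, n = 3) in the wild-type controls, 32.9 ± 0.801 FPKM (SD, n = 3) after LPS+ATP in that genotype, and listed at 0 in the 6 knockout libraries. Xist, the RNA of the inactive X chromosome, did not exceed 0.0416 FPKM in any wild-type library and was 32.8 to 56.3 FPKM in the knockout libraries, so that genotype and the sex of the donors cannot be told apart. The 8 macrophage markers were above 0 in every group, and their summed level was 19863 to 21106 FPKM in wild-type controls, 11697 to 11782 with LPS+ATP, 18965 to 19247 in Nlrp3-/- controls and 11070 to 11295 with LPS+ATP. Lyz2 made up most of this sum, with means of 18464 FPKM in wild-type controls and 9471 FPKM with LPS+ATP. By the test described below, 3 of the 8 rose and 4 fell with LPS+ATP in wild-type (23.3% and 53.1% of all genes). In the knockout 4 rose and 3 fell (20.6% and 53.8%). The 7 fibroblast markers summed to 162 to 168 FPKM in wild-type controls, 191 to 193 with LPS+ATP, 1188 to 1205 in Nlrp3-/- controls and 927 to 942 with LPS+ATP. The 7 neutrophil markers summed to 229 to 261 FPKM, 91.1 to 107 FPKM, 1367 to 1416 FPKM and 415 to 443 FPKM in the same order. In bulk RNA, fewer cells of a type and less RNA per cell cannot be told apart. The number of reads is not given by FPKM, and the depth of the libraries relative to each other, estimated from the spacing of their low values, was between 1.0 and 1.218.

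Nr4a1, Nr4a2 and Nr4a3 are immediate early genes, induced within minutes of a stimulus without new protein synthesis. The NR4A promoters are known to respond to cAMP through CREB, which binds the element TGACGTCA or its core TGACG. The sequences before their starts are shown because Nr4a1 was the receptor whose response to LPS+ATP differed most between the genotypes among the 8 tested, and because the promoters of the family share this core. Sequences were taken from RefSeq on GRCm38.p6, where the promoters of 9 of the 10 receptors were searched and Nr3c1 was left out. The sequences are written 5′ to 3′ on the strand of the gene with each core in capitals (TGACG, or CGTCA where it lies on the other strand).
Nr4a1 (chr15:101266596-101266845, + strand): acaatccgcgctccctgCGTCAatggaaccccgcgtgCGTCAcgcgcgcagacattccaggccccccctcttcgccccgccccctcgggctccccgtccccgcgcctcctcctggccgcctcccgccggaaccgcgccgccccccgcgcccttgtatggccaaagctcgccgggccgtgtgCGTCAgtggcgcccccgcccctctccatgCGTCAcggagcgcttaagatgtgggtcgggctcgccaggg
Nr4a2 (chr2:57124004-57124253, - strand): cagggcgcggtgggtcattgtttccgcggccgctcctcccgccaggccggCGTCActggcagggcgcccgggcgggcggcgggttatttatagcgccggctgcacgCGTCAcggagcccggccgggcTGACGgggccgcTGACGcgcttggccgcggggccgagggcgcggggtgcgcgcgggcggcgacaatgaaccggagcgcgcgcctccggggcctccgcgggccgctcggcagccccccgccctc
Nr4a3 (chr4:48045055-48045152, + strand): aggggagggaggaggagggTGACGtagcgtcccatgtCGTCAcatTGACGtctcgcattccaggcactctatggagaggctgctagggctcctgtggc
The Nr4a1 and Nr4a2 stretches are the 250 bases before the start, and that of Nr4a1 lies in an intron of a longer GENCODE M21 transcript. For Nr4a3 only the 98 bases outside any GENCODE M21 exon are printed, with 3 of its 4 cores.

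In the 250 bases before the start, the core TGACG occurred 4 times in each of Nr4a1, Nr4a2 and Nr4a3. In Nr4a1 the cores began 233, 213, 69 and 40 bases before the start. In Nr4a2 they began 200, 144, 123 and 111 bases before it, and in Nr4a3 231, 213, 205 and 147 bases before it. The core was found 0 times in the promoters of the other 6 receptors searched, those of Pparg, Ppard, Rxra, Nr1d1, Nr1d2 and Vdr. Of 32851 mouse promoters of the same length, 17.8% held at least 1 core on either strand and 0.137% held at least 4. The other motifs searched on both strands were the complete element TGACGTCA (which contains the core and is in 1.55% of promoters), the NR4A element AAAGGTCA (1.34%), the E-box CACGTG bound by CLOCK and BMAL1 (6.02%), and the REV-ERB element ANTAGGTCA (0.548%). Of these, 1 match was found, an AAAGGTCA that began 50 bases before the downstream start of Rxra. A match is a description of the letters and not evidence of binding.

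The control BMDMs of both genotypes held Rxra at the highest level of the 10 receptors per kilobase of gene. It was 17.3 ± 2.96 FPKM (SD, n = 3) in wild-type controls and 21.3 ± 0.177 FPKM (SD, n = 3) in Nlrp3-/- controls. Pparg was next, at 11.1 ± 0.333 FPKM and 11.9 ± 0.818 FPKM (SD, n = 3 each). In wild-type controls Nr1d2 overlapped with Pparg and Nr3c1 with Nr1d2, as did Nr1d1 with Nr4a1, and in Nlrp3-/- controls Nr3c1 overlapped with Nr1d2 and Pparg, Ppard with Nr1d1, and Nr4a1 with Vdr, so that the order of these genes is not resolved. The order was different with LPS+ATP. Nr3c1 was then highest in wild-type BMDMs, at 16.2 ± 0.279 FPKM (SD, n = 3), whereas Nr4a1 was highest in Nlrp3-/- BMDMs, at 16.6 ± 0.819 FPKM (SD, n = 3), having ranked 8 of 10 by its mean in the controls of that genotype. By its mean, Pparg moved from rank 2 to rank 9 in both genotypes. Nr4a3 had the lowest level of the 10 in all 4 groups, and its range overlapped with that of Pparg in wild-type BMDMs with LPS+ATP, as the range of Pparg did with that of Nr4a2.

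**Figure D1:**
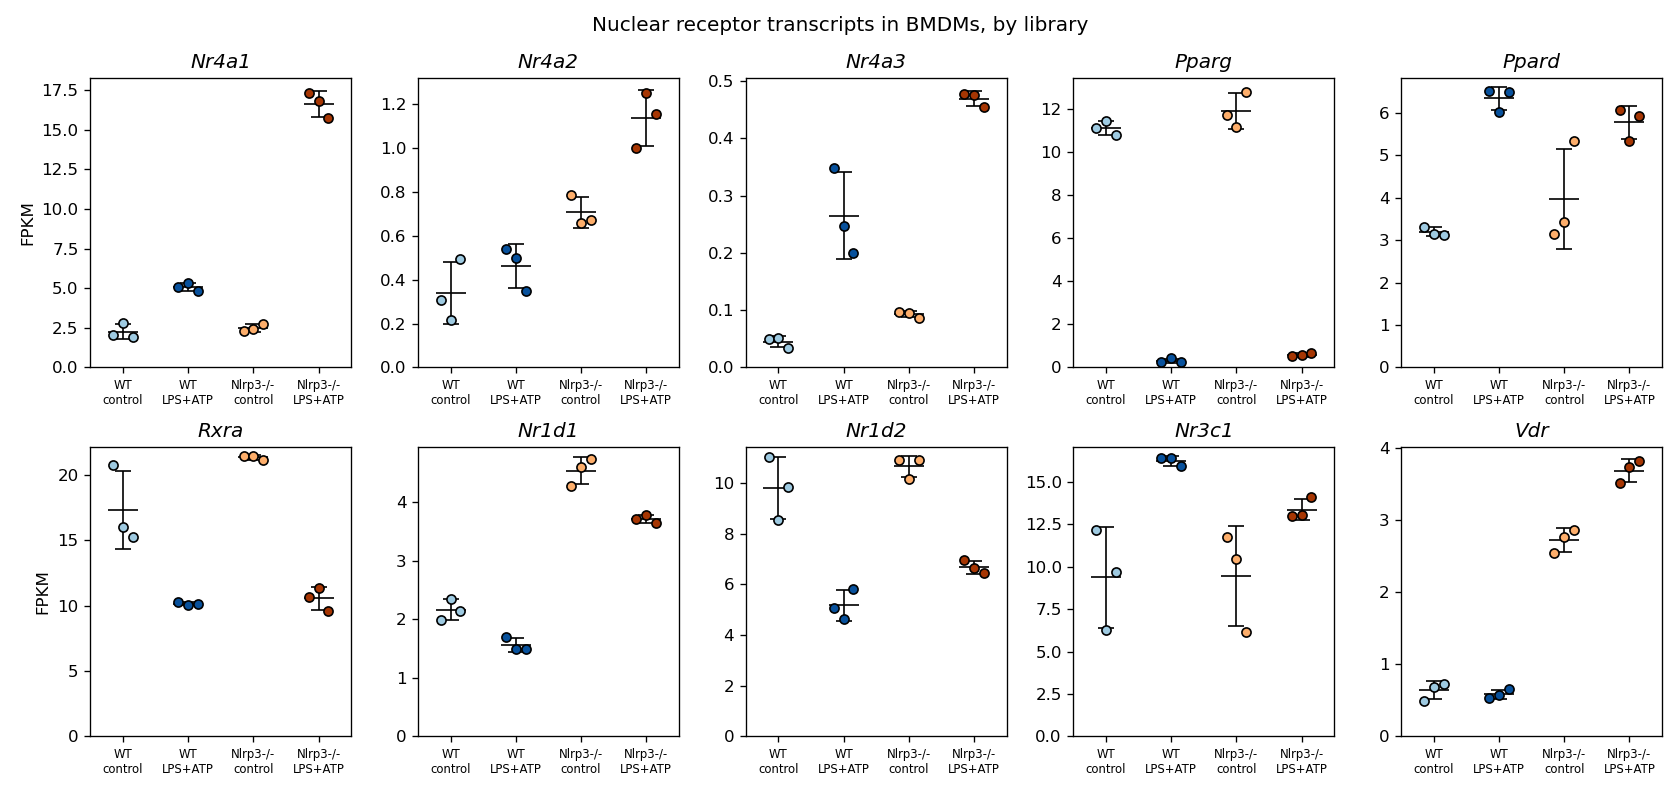
FPKM of the 10 receptors in the 12 libraries, each panel on its own scale from 0; dots are libraries, the horizontal bar is the mean of 3 libraries and the whiskers are 1 SD. Nr4a1 stands at 15.7 to 17.3 FPKM in Nlrp3-/- BMDMs with LPS+ATP and at or below 5.35 FPKM in the other groups, Pparg is below 1 FPKM in all 6 libraries with LPS+ATP, and Vdr separates the genotypes.

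Differences on log2(FPKM + 1) were tested by limma in a single model of the 12 libraries, and are given on that scale, on which changes of weakly expressed genes appear too small. A gene passed the test at a Benjamini-Hochberg adjusted p under 0.05 over the 12622 genes tested, and was called where its log2 difference was also at least 1 in either direction. After LPS+ATP in wild-type BMDMs, 1 of the 8 tested receptors was called, where 19.4% of all tested genes were called. Of the 8, 3 rose (23.3% of all genes), 4 fell (53.1%) and 1 did not pass. The receptor called was Pparg, which entered the test only through its high controls. In the other genotype 2 of 8 were called (14.8%), 3 rose (20.6%), 4 fell (53.8%) and 1 did not pass. The median log2 difference was -0.18 over the 8 receptors and -0.25 over all genes in wild-type, and 0.05 and -0.24 in Nlrp3-/- BMDMs. Scaling the libraries by median ratios moved the median of all genes by 0.24 in the wild-type comparison, 0.23 in the Nlrp3-/- comparison, -0.15 between the control genotypes and -0.17 between the genotypes with LPS+ATP. Where that scaling changes a call or is needed to read a small change, its value is given below.

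Nr4a1 (NUR77; ENSMUSG00000023034, chromosome 15 from 101254269 to 101274795 on GRCm38) rose with LPS+ATP in both genotypes, and more in Nlrp3-/- BMDMs. In wild-type controls it was 2.02, 2.79 and 1.93 FPKM, and with LPS+ATP 5.08, 5.35 and 4.84 FPKM. In Nlrp3-/- controls it was 2.32, 2.41 and 2.75 FPKM, and with LPS+ATP 17.3, 16.8 and 15.7 FPKM. The 3 Nlrp3-/- libraries with LPS+ATP stood above all others, the 3 wild-type libraries with LPS+ATP came next, and the controls of the genotypes overlapped. The mean rose 2.26-fold in wild-type and 6.68-fold in Nlrp3-/- BMDMs. The log2 difference was 0.92 ± 0.09 (SE; limma adjusted p = 3.0e-06) in wild-type and 2.34 ± 0.09 (adjusted p = 1.1e-09) in Nlrp3-/- BMDMs. The difference between the responses was 1.42 ± 0.13 (SE; limma adjusted p = 1.6e-05). In wild-type the rise was under the limit of 1 and reached 1.17 after median-ratio scaling, and 1.03 without wild-type control replicate 2. Without that library the controls of the genotypes also differed, by 0.23 (limma adjusted p = 0.0197), against 0.11 (adjusted p = 0.348) with all libraries.

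Nr4a2 (NURR1) and Nr4a3 (NOR1) were low in every library and were left out of the test. Nr4a2 was 0.307, 0.216 and 0.493 FPKM in wild-type controls, 0.541, 0.499 and 0.349 with LPS+ATP, 0.787, 0.659 and 0.675 in Nlrp3-/- controls and 0.999, 1.25 and 1.16 with LPS+ATP. All 6 Nlrp3-/- libraries stood above all 6 wild-type libraries, while the wild-type groups overlapped with each other. The ratio of the Nlrp3-/- mean to the wild-type mean was 2.09 in controls and 2.46 with LPS+ATP. Nr4a3 was 0.050, 0.0512 and 0.0342 FPKM in wild-type controls and 0.348, 0.248 and 0.200 FPKM with LPS+ATP. In the knockout it was 0.0961, 0.0959 and 0.0865 FPKM in controls and 0.477, 0.476 and 0.454 FPKM with LPS+ATP. Its 4 groups did not overlap, and the mean with LPS+ATP was 5.88 times that of controls in wild-type and 5.05 times in Nlrp3-/- BMDMs. An exact two-sided permutation test of 3 against 3 libraries cannot give a p below 0.1, which was its value in the 4 comparisons of groups for both genes, except for Nr4a2 between the wild-type groups (exact p = 0.2). In a limma fit without the minimum of FPKM, Nr4a3 differed by 0.27 (adjusted p = 1.7e-04) in wild-type and by 0.43 (adjusted p = 6.8e-06) in Nlrp3-/- BMDMs. Between the genotypes it differed by 0.064 (adjusted p = 0.302) in controls, which did not pass, and by 0.22 (adjusted p = 0.00186) with LPS+ATP. Nr4a2 differed there by 0.35 (adjusted p = 0.0143) and 0.55 (adjusted p = 0.00118). With stimulation Nr4a2 differed by 0.13 (adjusted p = 0.321) in wild-type and 0.32 (adjusted p = 0.0145) in the knockout.

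Of the 18 other immediate early genes listed, all were tested. In wild-type BMDMs with LPS+ATP 5 were called higher and 1 lower (19.4% of all genes in either direction), with a median of 0.52 over the list against -0.25 over all genes. In the knockout 8 were called higher and 0 lower (14.8% of all genes), with a median of 0.75 against -0.24. Ier3, an early response gene, rose by 3.32 in wild-type and 2.76 in the knockout. Egr1, a zinc finger factor, rose by 3.13 in wild-type and 3.05 in the knockout. Klf2, a Krüppel-like factor that restrains inflammatory genes, fell by 1.66 in wild-type and by 0.82 in the knockout. Between the control genotypes 2 of the 18 were called higher and 0 lower (6.71% of all genes in either direction), with a median of 0.32 against 0.09. Between the genotypes with LPS+ATP 7 of the 18 were called higher and 0 lower (5.05% of all genes in either direction), with a median of 0.79 against 0.11 over all genes. Egr1 was higher by 1.60 in Nlrp3-/- controls and by 1.52 with LPS+ATP. The difference between its responses was -0.08 (limma adjusted p = 0.329), so its difference was present without stimulation. Fosb, a partner of JUN in AP-1, reached 1.88 ± 0.121 FPKM (SD, n = 3) in stimulated wild-type and 10.2 ± 1.04 FPKM (SD, n = 3) in stimulated Nlrp3-/- BMDMs. Its means in controls were 0.0698 FPKM in wild-type and 0.181 FPKM in the knockout. It met the minimum of FPKM only through the stimulated libraries, where it was high, and it counts among the calls above. Its response differed between the genotypes by 1.81 (limma adjusted p = 5.2e-07), and that of the phosphatase gene Dusp2 by 1.32 (adjusted p = 1.1e-05), the 2 genes of the list called in that contrast (2.15% of all genes). Over the 12 libraries the log2 levels of Fosb were among those most like the levels of Nr4a1 (Pearson r = 0.993). The points of each group share genotype and treatment, and this r, like those below, is a description.

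Pparg (PPARγ; ENSMUSG00000000440, chromosome 6), which controls lipid uptake and storage in macrophages, nearly disappeared with LPS+ATP in both genotypes. In wild-type controls it was 11.1, 11.4 and 10.8 FPKM, and with LPS+ATP 0.261, 0.415 and 0.233 FPKM. In Nlrp3-/- controls it was 11.7, 11.2 and 12.8 FPKM, and with LPS+ATP 0.510, 0.571 and 0.692 FPKM. Every library with LPS+ATP was below every control, and the controls of the genotypes overlapped. The mean of controls was 36.7 times the mean with LPS+ATP in wild-type and 20.1 times in Nlrp3-/- BMDMs. The log2 difference was -3.22 ± 0.07 (SE; limma adjusted p = 4.6e-12) in wild-type and -3.02 ± 0.07 (adjusted p = 1.0e-11) in Nlrp3-/- BMDMs. With LPS+ATP the 3 Nlrp3-/- libraries were above the 3 wild-type libraries, the ratio of the means being 1.95 and the log2 difference 0.29 (limma adjusted p = 0.00527), or 0.24 (adjusted p = 0.0178) after median-ratio scaling. The difference between the responses was 0.20 with a 95% interval of -0.02 to 0.42 (limma adjusted p = 0.165). It depended on the scale, being 0.70 (adjusted p = 0.0351) with a pseudocount of 0.1, 0.49 (adjusted p = 0.0440) as TPM and 0.33 (adjusted p = 0.0340) after median-ratio scaling. The patterns most like that of Pparg over the 12 libraries were those of Engase and Arhgap19 (r = 0.999 each).

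Ppard (PPARδ; ENSMUSG00000002250, chromosome 17), the more widely expressed fatty acid receptor, moved in the opposite direction. It was 3.32, 3.14 and 3.13 FPKM in wild-type controls and 6.50, 6.02 and 6.50 FPKM with LPS+ATP. In the knockout it was 3.14, 3.44 and 5.33 FPKM in controls and 6.06, 5.34 and 5.91 FPKM with LPS+ATP. Replicate 3 of the Nlrp3-/- controls lay close to the stimulated libraries, just below the lowest of them. The rise was 0.81 ± 0.13 (SE; limma adjusted p = 1.3e-04) in wild-type and 0.47 ± 0.13 (adjusted p = 0.00576) in Nlrp3-/- BMDMs, and the difference between the responses was -0.34 with a 95% interval of -0.73 to 0.06 (adjusted p = 0.200). After median-ratio scaling the rise was 1.08, which was called, in wild-type and 0.71 in the knockout. Between the genotypes Ppard did not pass in controls (0.22, adjusted p = 0.186), where the value was 0.34 (adjusted p = 0.0475) without Nlrp3-/- control replicate 1 and 0.03 (adjusted p = 0.741) without replicate 3, or with LPS+ATP (-0.12, adjusted p = 0.482, against -0.33, adjusted p = 0.0391, after upper-quartile scaling).

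Of 19 known target genes of the PPARs, most of which handle fatty acids, 17 were tested, 10 were called lower and 0 higher with LPS+ATP in each genotype, where 19.4% of all tested genes in wild-type and 14.8% in the knockout were called in either direction. The median log2 difference of the list was -1.02 in wild-type and -1.17 in the knockout, against -0.25 and -0.24 over all genes. Lpl, the lipase that frees fatty acids from lipoproteins, fell by 2.68 in wild-type and fell by 2.77 in the knockout. The fatty acid binding protein gene Fabp5 fell by 2.21 in wild-type, from 425 ± 17.1 FPKM to 91.2 ± 1.73 FPKM (SD, n = 3), and Fabp4 fell by 2.86 in Nlrp3-/- BMDMs, from 47.4 ± 1.62 FPKM to 5.68 ± 0.557 FPKM (SD, n = 3). Between the control genotypes 3 of the list were called higher and 0 lower (6.71% of all genes in either direction). The median of the list was 0.04 there, against 0.09 over all genes. Angptl4, an inhibitor of LPL, was higher by 1.42 in Nlrp3-/- controls, and Pdk4, which restrains glucose oxidation, by 1.22. The response of Angptl4 differed between the genotypes by -1.24 (limma adjusted p = 1.2e-06), the only call of the list in that contrast (2.15% of all genes). Many of these genes also respond to other factors, and their change says nothing of PPARγ binding.

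Rxra (RXRα; ENSMUSG00000015846, chromosome 2), the partner with which PPARs, the vitamin D receptor and others bind DNA, fell with LPS+ATP. It was 20.7, 16.0 and 15.3 FPKM in wild-type controls and 10.3, 10.1 and 10.1 FPKM with LPS+ATP, against 21.4, 21.4 and 21.1 FPKM in Nlrp3-/- controls and 10.7, 11.4 and 9.61 FPKM with LPS+ATP. The stimulated libraries of the genotypes overlapped, and all were below all controls. The log2 difference was -0.70 ± 0.09 (SE; limma adjusted p = 3.2e-05) in wild-type and -0.95 ± 0.09 (adjusted p = 3.0e-06) in Nlrp3-/- BMDMs. After median-ratio scaling it was -0.41 and -0.67. Rxra was higher in Nlrp3-/- than in wild-type controls by 0.30 (limma adjusted p = 0.0219), and this did not pass after median-ratio scaling (0.11, adjusted p = 0.378) or without wild-type control replicate 2 (0.25, adjusted p = 0.0807), replicate 3 (0.22, adjusted p = 0.0875), or Nlrp3-/- control replicate 1 (0.29, adjusted p = 0.0537) or replicate 2 (0.29, adjusted p = 0.0547). The difference between the responses of Rxra was -0.25 (adjusted p = 0.195), and -0.38 (adjusted p = 0.00537) without wild-type control replicate 1.

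Of 39 other nuclear receptors, 11 were tested. By limma, 0 were called in wild-type BMDMs with LPS+ATP (19.4% of all genes), where 3 passed the test as higher and 6 as lower (23.3% and 53.1% of all genes). Between the genotypes 0 were called (6.71% of all genes in controls, 5.05% with LPS+ATP). There 4 passed as higher and 0 as lower in controls (33.3% and 14.5% of all genes) and 7 as higher and 1 as lower with LPS+ATP (35.9% and 12.6%). In the knockout 1 was called with LPS+ATP (14.8% of all genes), the retinoic acid receptor gene Rara, which fell by 1.03 (limma adjusted p = 1.0e-07). Of 19 coregulators, the proteins that receptors recruit to open or close chromatin, 18 were tested and 13 passed as lower and 1 as higher with LPS+ATP in wild-type, where 53.1% of all genes passed as lower and 23.3% as higher, with a median of -0.40 against -0.25 over all genes. In the knockout 15 passed as lower and 1 as higher (53.8% and 20.6% of all genes), with a median of -0.38 against -0.24. The only coregulators called were Tbl1x in wild-type (-1.01) and Tbl1xr1 in Nlrp3-/- BMDMs (-1.01), where 19.4% and 14.8% of all genes were called. Both encode parts of the NCoR and SMRT corepressor complex.

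**Figure D2:**
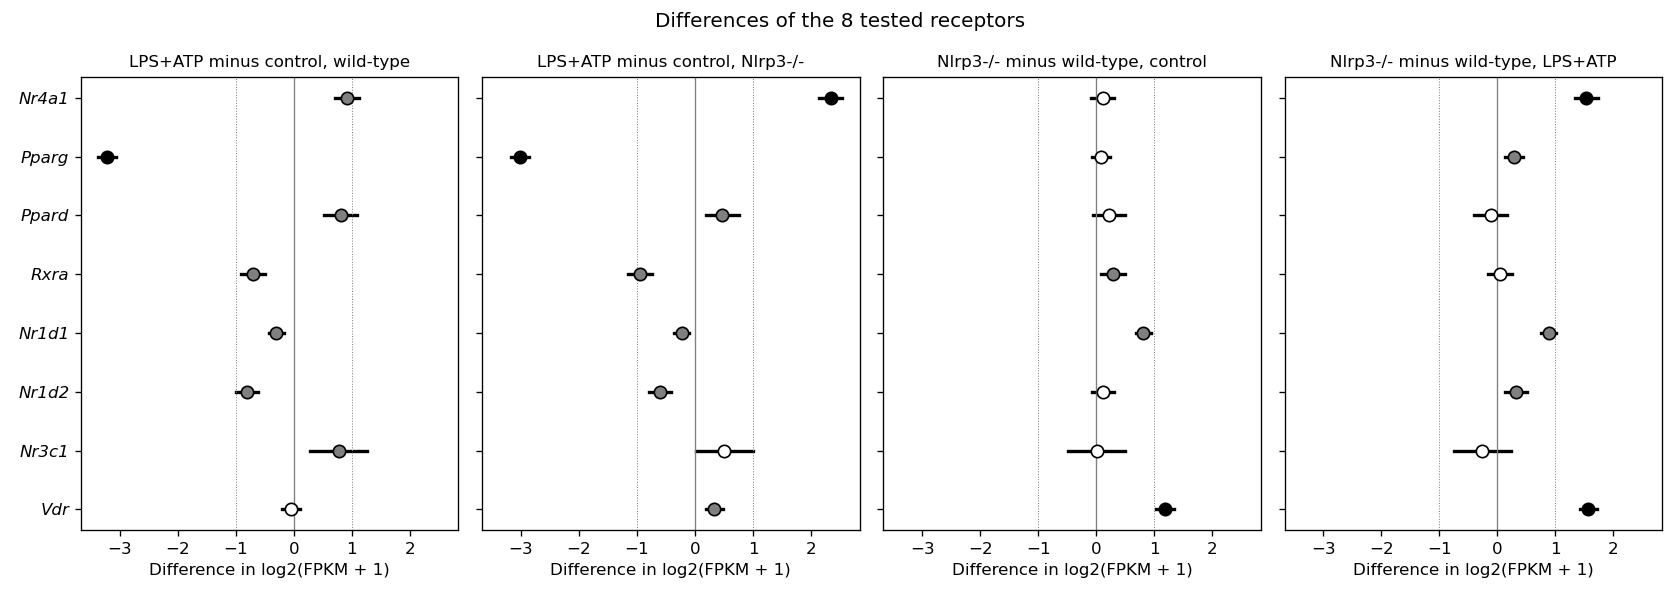
Differences of the 8 tested receptors in log2(FPKM + 1), with 95% intervals not adjusted for multiple tests; black dots were called, grey dots passed the test and white dots did not, and dotted lines mark the limit of 1 in either direction. Pparg lies near -3 in both stimulation panels, Nr4a1 exceeds 1 in the Nlrp3-/- stimulation panel and in the genotype panel with LPS+ATP, and Vdr exceeds 1 in both genotype panels.

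Between the genotypes, 1 of the 8 tested receptors was called in controls, where 6.71% of all tested genes were. Of the 8, 3 were higher in Nlrp3-/- BMDMs (33.3% of all genes), 0 were lower (14.5%) and 5 did not pass. With LPS+ATP 2 of 8 were called (5.05%), 5 were higher (35.9%), 0 were lower (12.6%) and 3 did not pass. The median over the receptors was 0.17 in controls and 0.30 with LPS+ATP, and over all genes 0.09 and 0.11. For the difference between the responses, 1 of 8 was called (2.15%), 2 passed with a positive sign (14.7%) and 0 with a negative sign (13.0%). Vdr counts in these numbers although it passed the minimum of FPKM only through the group in which it was higher.

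Vdr (ENSMUSG00000022479, chromosome 15), the receptor of 1,25-dihydroxyvitamin D, separated the genotypes. It was 0.495, 0.691 and 0.731 FPKM in wild-type controls and 0.527, 0.574 and 0.651 FPKM with LPS+ATP. Knockout BMDMs held 2.53, 2.76 and 2.85 FPKM in controls and 3.51, 3.73 and 3.81 FPKM with LPS+ATP. All Nlrp3-/- libraries stood above all wild-type libraries, and the wild-type groups overlapped. The Nlrp3-/- mean was 4.25 times the wild-type mean in controls and 6.31 times with LPS+ATP. The log2 difference was 1.18 ± 0.07 (SE; limma adjusted p = 6.8e-08) in controls and 1.56 ± 0.07 (adjusted p = 1.1e-08) with LPS+ATP. Stimulation raised Vdr by 0.33 ± 0.07 (SE; limma adjusted p = 9.1e-04) in Nlrp3-/- BMDMs, or by 0.55 after median-ratio scaling, while the wild-type value was -0.05 with a 95% interval of -0.20 to 0.10 (adjusted p = 0.536). The difference between the responses was 0.38 ± 0.10 (SE; limma adjusted p = 0.0123), which did not pass with a pseudocount of 0.1 (0.53, adjusted p = 0.0581).

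The summed fibroblast and neutrophil markers given above were also higher in Nlrp3-/- BMDMs. Of the 7 fibroblast markers all were tested and were higher in both genotype comparisons, 6 of them called in controls and 5 with LPS+ATP. Of the neutrophil markers 6 were tested and all 6 were higher, 5 called in controls and 3 with LPS+ATP. Over all genes 33.3% were higher in controls and 35.9% with LPS+ATP, and 6.71% and 5.05% were called in either direction. Among these, Lum and Cxcr2 reached the minimum of FPKM only through Nlrp3-/- libraries, where they were high. No marker of these lists was at 0 in a whole group. Of the 8 macrophage markers 0 passed as higher in either genotype comparison (33.3% of all genes in controls, 35.9% with LPS+ATP). As lower, 5 passed in controls and 4 with LPS+ATP (14.5% and 12.6%), and 0 were called. With LPS+ATP in the knockout, where Vdr rose, 3 of the 7 fibroblast markers also rose (Pdgfra by 0.59, Pdgfrb by 0.57 and Dcn by 0.24) and 3 fell, the collagen genes Col1a1, Col1a2 and Col3a1, which make up most of the sum, while all 6 tested neutrophil markers fell. Over all genes 20.6% rose and 53.8% fell in that comparison. The genes most like Vdr over the 12 libraries were Csrp1 (r = 0.996) and Islr (r = 0.992). The part of other cell types, and of sex, in the level of Vdr was not tested.

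Of 15 genes of the vitamin D and retinoid pathways only 5 were tested. With LPS+ATP 2 were called lower in wild-type (19.4% of all genes in either direction) and 3 in Nlrp3-/- BMDMs (14.8%), and 0 higher. Cyp27a1, a mitochondrial sterol hydroxylase that can also hydroxylate vitamin D, fell by 3.33 in wild-type and fell by 2.80 in the knockout. Its means with LPS+ATP were 0.865 FPKM and 0.625 FPKM, so it met the minimum of FPKM only through its high controls. Dhrs3, which reduces retinaldehyde, fell by 2.75 in wild-type and fell by 2.69 in the knockout. Between the control genotypes Aldh1a2, the enzyme that makes retinoic acid, was higher by 2.36 in Nlrp3-/- BMDMs, and Crabp2, which carries retinoic acid to the nucleus, by 2.23. The mean of Crabp2 was 0.612 FPKM in wild-type controls and 0.256 FPKM with LPS+ATP. It reached the minimum of FPKM only through the Nlrp3-/- libraries, where it was high. Aldh1a2 stood at 5.94 ± 0.319 FPKM in control wild-type and 34.7 ± 0.746 FPKM in control Nlrp3-/- BMDMs (SD, n = 3), and was higher by 1.90 with LPS+ATP. The response of Crabp2 to LPS+ATP differed between the genotypes by -1.40 (limma adjusted p = 2.1e-04).

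Nr1d1 (REV-ERBα; ENSMUSG00000020889, chromosome 11) and Nr1d2 (REV-ERBβ; ENSMUSG00000021775, chromosome 14) bind heme and repress clock and inflammatory genes. Nr1d1 was 2.00, 2.36 and 2.14 FPKM in wild-type controls and 1.70, 1.50 and 1.49 FPKM with LPS+ATP. Knockout BMDMs held 4.28, 4.60 and 4.73 FPKM in controls and 3.72, 3.78 and 3.65 FPKM with LPS+ATP. Its 4 groups did not overlap, and the Nlrp3-/- mean was 2.10 times the wild-type mean in controls and 2.38 times with LPS+ATP. On the log2 scale the genotypes differed by 0.81 ± 0.06 (SE; limma adjusted p = 4.6e-07) and 0.88 ± 0.06 (adjusted p = 2.9e-07), and by 0.64 and 0.75 after median-ratio scaling. Nr1d1 fell by 0.30 (adjusted p = 5.8e-04) with LPS+ATP in wild-type and fell by 0.23 (adjusted p = 0.00388) in Nlrp3-/- BMDMs, near the median of all genes. After median-ratio scaling these falls did not pass the test, at -0.10 (adjusted p = 0.155) and 0.0093 (adjusted p = 0.902).

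Nr1d1 shares 263 of its 3077 exonic bases (8.55%) with Thra, the thyroid hormone receptor gene on the opposite strand. Whether the counting used strand is not given in the sources used here, and reads from the shared bases cannot then be assigned. Thra was 4.56 ± 0.666 FPKM in wild-type controls, 2.70 ± 0.143 with LPS+ATP, 7.59 ± 0.401 in Nlrp3-/- controls and 3.72 ± 0.336 with LPS+ATP (SD, n = 3). Thra was thus also higher in Nlrp3-/- controls, and its part in the level of Nr1d1 was not tested, nor was that of the fibroblast and neutrophil markers that were higher in the same libraries. The other 9 receptors share 0 exonic bases with another gene. The patterns most like that of Nr1d1 were those of Arhgef40 (r = 0.995) and Tgfbr3 (r = 0.993).

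Nr1d2 was 11.0, 8.54 and 9.85 FPKM in wild-type controls and 5.06, 4.64 and 5.82 FPKM with LPS+ATP. Knockout BMDMs held 10.9, 10.2 and 10.9 FPKM in controls and 6.95, 6.64 and 6.43 FPKM with LPS+ATP. The controls of the genotypes overlapped, whereas the stimulated Nlrp3-/- libraries were above the stimulated wild-type libraries. It fell by 0.81 (limma adjusted p = 5.5e-06) in wild-type and fell by 0.60 (adjusted p = 6.9e-05) in Nlrp3-/- BMDMs, and after median-ratio scaling the differences were -0.53 and -0.33. The genotypes differed by 0.32 (limma adjusted p = 0.0103) with LPS+ATP, which did not pass after median-ratio scaling (0.13, adjusted p = 0.208).

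Of 17 other clock genes in the table, 15 were tested. In wild-type BMDMs with LPS+ATP 1 was called higher and 2 lower (19.4% of all genes in either direction), and in Nlrp3-/- BMDMs 0 were called higher and 1 lower (14.8%). Per2, a repressor of CLOCK and BMAL1, rose by 1.27 in wild-type and by 0.66 in the knockout. Dbp, a transcription factor driven by CLOCK and BMAL1, fell by 2.17 in wild-type and fell by 1.46 in the knockout. Dbp had means of 0.499 FPKM and 0.937 FPKM with LPS+ATP, so it met the minimum of FPKM only through its high controls. Tef, related to Dbp, fell by 1.02 in wild-type and by 0.93 in the knockout. By limma, 0 of the 15 were called between the genotypes (6.71% of all genes in controls, 5.05% with LPS+ATP) or in the difference between the responses (2.15%). In each genotype comparison 8 passed as higher and 2 as lower (33.3% and 14.5% of all genes in controls, 35.9% and 12.6% with LPS+ATP). For the difference between the responses 2 passed with a positive and 1 with a negative sign (14.7% and 13.0% of all genes). The time of day at which the cells were collected is not given in the sources used here.

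Nr3c1 (the glucocorticoid receptor; ENSMUSG00000024431, chromosome 18), which represses inflammatory genes when bound by corticosterone, varied most between replicates among the tested receptors on the log2 scale. It was 12.2, 6.28 and 9.69 FPKM in wild-type controls and 16.4, 16.4 and 15.9 FPKM with LPS+ATP. Knockout BMDMs held 11.8, 10.5 and 6.14 FPKM in controls and 13.0, 13.0 and 14.1 FPKM with LPS+ATP. In each genotype the stimulated libraries were above the controls, and the spread lay in the controls. Its residual SD of 0.313 on the log2 scale was larger than that of 95.7% of tested genes, whose median was 0.0882. The log2 difference was 0.78 ± 0.22 (SE; limma adjusted p = 0.00798) in wild-type and 0.50 ± 0.22 (adjusted p = 0.0611) in Nlrp3-/- BMDMs, and the difference between the responses was -0.27 with a 95% interval of -0.97 to 0.42 (adjusted p = 0.572). After median-ratio scaling these values were 1.07 (adjusted p = 9.9e-04) and 0.77 (adjusted p = 0.00918). The Nlrp3-/- value was 0.25 (adjusted p = 0.258) without Nlrp3-/- control replicate 3, the lowest of that group. It passed the test without Nlrp3-/- control replicate 1 (0.67, adjusted p = 0.0260), and also, through the shared spread, without wild-type control replicate 1 (adjusted p = 0.0430) or replicate 2 (adjusted p = 0.0273). The stimulated genotypes did not overlap, but the difference of -0.26 did not pass (adjusted p = 0.362) except in a fit of those groups alone (adjusted p = 0.00269). Nr3c1 was most like Fth1 (r = 0.904) and Rab5a (r = 0.889) over the 12 libraries. For the receptors not yet given, the nearest patterns were Pgap2 (r = 0.972) and Gm43215 (r = 0.965) to Ppard, mt-Nd5 and Supt20 (r = 0.989 each) to Rxra, and Ola1 (r = 0.988) and Calm2 (r = 0.986) to Nr1d2.

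Of 16 target genes of the glucocorticoid receptor, 13 were tested, with 5 called higher and 3 lower in wild-type BMDMs with LPS+ATP (19.4% of all genes in either direction), and 3 higher and 3 lower in Nlrp3-/- BMDMs (14.8%). The genes moved in both directions, the medians being -0.15 and -0.11 against -0.25 and -0.24 over all genes. Nfkbia, the inhibitor of NF-κB and itself an NF-κB target, rose by 2.64 in wild-type and 2.08 in the knockout. Sgk1, a serum and glucocorticoid-regulated kinase gene, rose by 1.66 in wild-type and by 0.91 in the knockout. The stress gene Sesn1 had differences of -4.36 in wild-type and -3.32 in the knockout, and Anxa1, which encodes an anti-inflammatory annexin, of -2.02 and -1.59. The fall of Sesn1 differed between the genotypes by 1.04 (limma adjusted p = 6.4e-06). Ddit4, an inhibitor of mTORC1, was higher in Nlrp3-/- BMDMs by 1.68 in controls and 1.27 with LPS+ATP, and Tgfbr3, a co-receptor of TGF-β, by 1.42 and 1.73. Of the 9 genes for chaperones of the receptor and for ligand enzymes, 8 were tested. In wild-type with LPS+ATP 3 were called higher and 0 lower (19.4% of all genes in either direction), among them Hsp90aa1 (1.84) and Hspa8 (1.45). By limma, 0 were called in the knockout (14.8%), where 5 passed as higher and 2 as lower (20.6% and 53.8%). There Hsp90aa1 rose by 0.98 and Hspa8 by 0.96, just under the limit of 1. The difference between the responses was called for 0 genes of this list (2.15% of all genes) and passed with a negative sign for 4 (13.0%). For Hspa8 it did not pass (-0.49, limma adjusted p = 0.0836). Hsd11b1, which makes active corticosterone from its inert precursor, was higher by 1.10 in Nlrp3-/- controls. Its mean was 3.04 FPKM there and 0.899 FPKM in wild-type controls, under the minimum of 1.

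**Figure D3:**
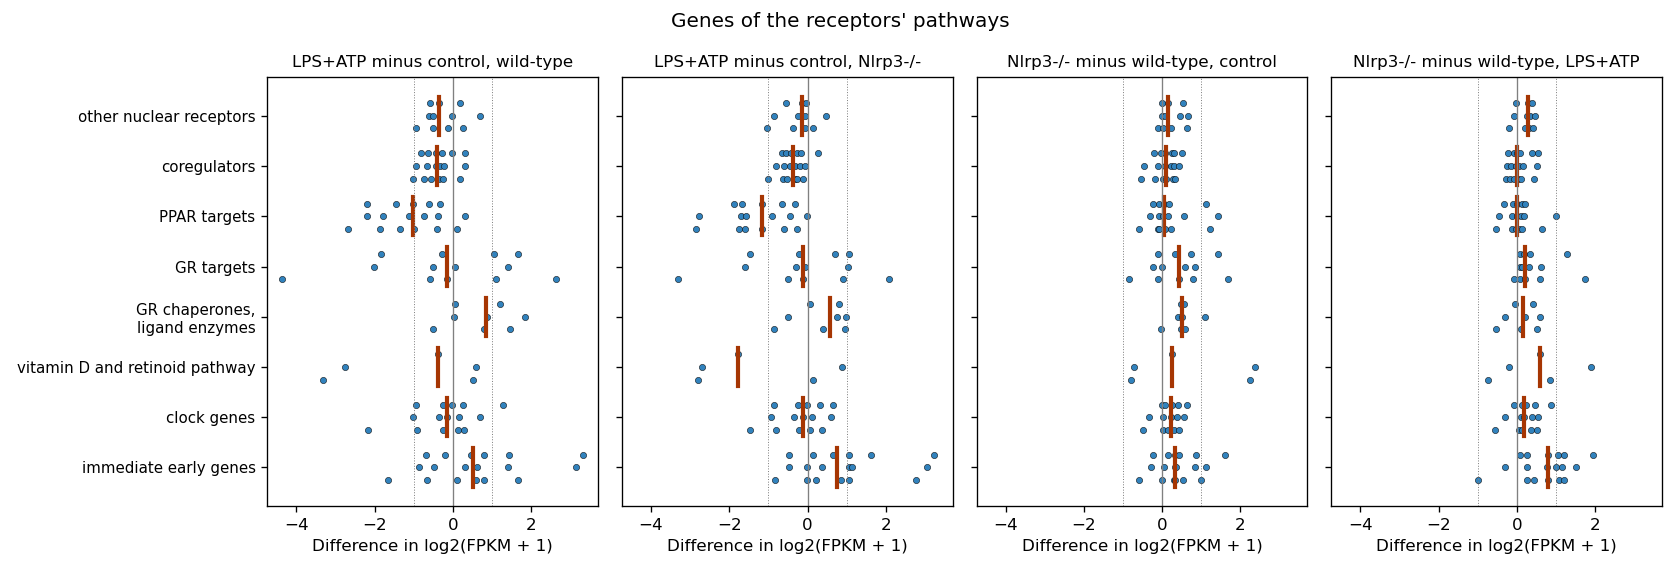
Differences in log2(FPKM + 1) of the tested genes of 8 lists (rows), a dot per gene and a red bar at the median of each list, for the 4 comparisons; GR is the glucocorticoid receptor, and dotted lines mark the limit of 1 in either direction. The PPAR targets have medians of -1.02 and -1.17 in the stimulation panels, and the immediate early genes a median of 0.79 between the genotypes with LPS+ATP and 0.32 in controls.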

How the data were processed

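RNA-seq of 12 libraries, 3 in each of 4 groups taken from the sample labels, was used. The authors deposited FPKM per gene and library for 55335 genes. The submitters' processing notes name DESeq2 1.24.0 and GRCm39 without saying for what. The aligner, the annotation and any scaling between libraries are not given in the sources used here, and 55154 gene identifiers are in GENCODE M21 (GRCm38). FPKM holds no read counts, so the depth in reads is unknown and no count test or counting interval is given. The test was that of limma 3.58.1 under R 4.3.3 on log2(FPKM + 1), with a mean for each group and a variance trend over all 12 libraries, for the 12622 genes that reached an FPKM of 1 in 3 or more libraries. Calls needed an adjusted p (Benjamini-Hochberg) under 0.05 together with a log2 difference of 1 or more in size. The procedure was tested on simulated data. Python 3.11.15 with pandas 2.3.3, numpy 2.4.6 and matplotlib 3.10.9 served for levels, lists and figures.

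All 10 receptors were named. Of each pathway list, at most the 2 genes called higher and the 2 called lower with the largest difference were named per comparison, and for each tested receptor the 2 genes with the highest Pearson r, of which 1 is not reported here. Thra was named for its overlap and its levels after they were seen. The receptors and lists were chosen with earlier results of these data known. Some genes, such as Fkbp5, Dusp1, Klf4 and Per1, are in more than 1 list. Of the other marker lists, T cell, B cell, adipocyte, dendritic cell and endothelial markers summed to at most 0.722, 5.29, 0.447, 5.49 and 12.6 FPKM in any library. Alternatives were a pseudocount of 0.1, no minimum of FPKM, a minimum of 5, TPM, median-ratio and upper-quartile scaling, a replicate block, no variance trend, the compared groups alone, no fold limit, and leaving out each library.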

Additional observations from a re-analysis of the deposited data

Results flagged for a closer look

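The response of Nr4a1 to LPS+ATP differed between the genotypes by 1.42 on the log2 scale (limma adjusted p = 1.6e-05), the Nlrp3-/- response being larger, in the test of the difference itself. The response of Vdr differed by 0.38 (limma adjusted p = 0.0123), also larger in Nlrp3-/- BMDMs, and with a pseudocount of 0.1 this did not pass (adjusted p = 0.0581). All 3 stimulated Nlrp3-/- libraries stood above all other libraries for each gene. Genotype cannot be told apart from the sex of the donors in either result.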

How the results depend on the processing

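Of 822 values of single receptors under the alternatives, 790 kept direction and call, 14 became called, 0 calls were lost and 18 changed sign, none of them called. The number of receptors called with LPS+ATP in wild-type was 1, and 2 with a pseudocount of 0.1 or as TPM, 4 after median-ratio or upper-quartile scaling, 7 without a fold limit, and 1 to 2 when a library was left out (2, with Nr4a1, without wild-type control replicate 2). In Nlrp3-/- BMDMs the number of receptors called was 2, and 3 with a pseudocount of 0.1 or without Nlrp3-/- LPS+ATP replicate 2 (with Rxra), and 7 without a fold limit. Over all genes it was 1874, and 2847 with a pseudocount of 0.1, 1888 without that library and 9383 without a fold limit. Between the control genotypes the number of receptors called was 1, and 2 with a pseudocount of 0.1, 0 with a minimum FPKM of 5, which removes Vdr, and 3 without a fold limit. Over all genes it was 847, and 1428 with a pseudocount of 0.1, 515 among the fewer genes with a minimum FPKM of 5, and 6035 without a fold limit. Between the genotypes with LPS+ATP the number of receptors called was 2 (5.05% of all genes), and 3 with a pseudocount of 0.1 or as TPM (Nr1d1 at 1.20 and 1.14), 1 with a minimum FPKM of 5 and 5 without a fold limit (35.9% of all genes higher, 12.6% lower). For the difference between the responses it was 1 (2.15% of all genes), and 2 without a fold limit (14.7% of all genes positive, 13.0% negative). The signs that changed under median-ratio and upper-quartile scaling were those of Vdr in wild-type (0.0750 and 0.0729), Nr1d1 in Nlrp3-/- BMDMs (0.0093 and 0.0041), the control genotype differences of Nr4a1 (-0.0274 and -0.0458), Pparg (-0.0937 and -0.12), Nr1d2 (-0.0649 and -0.0890) and Nr3c1 (-0.17 and -0.19), and the genotype difference of Rxra with LPS+ATP (-0.15 and -0.18). Both scalings move the median of all genes. With a library left out, the control genotype difference of Nr3c1 ran from -0.22 to 0.26 and that of Rxra with LPS+ATP from -0.0043 to 0.11. Over all tested genes same-numbered libraries did not deviate together (r from -0.057 to 0.053), although Vdr rose from replicate 1 to replicate 3 in every group. Whether the numbers pair the libraries is not given in the sources used here. The replicate block left the counts at 1, 2, 1, 2 and 1 and changed no call.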
